A study of Mus musculus with 13 samples.

Results

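To determine how the contractile machinery of the cardiomyocyte was transcribed with and without *Hmox2*, 10 genes of the sarcomere were followed in whole heart and in aortic endothelial cells (ECs) of *Hmox2*-/- mice (KO) and *Hmox2*+/+ littermates (WT). The genes were taken by name, as sarcomere genes of cardiomyocytes, and the rule itself used no measured value. They were *Myl2*, *Myl3*, *Myl7* and *Myl4* (myosin light chains), *Myh6* (the alpha cardiac myosin heavy chain), *Mybpc3* (cardiac myosin binding protein C), *Actc1* (cardiac actin), and *Tnnt2*, *Tnni3* and *Tnnc1* (the cardiac troponins T, I and C). All 10 were among the 36109 genes listed in each of 13 libraries. Whole hearts, fast-frozen and pulverized, gave 4 WT and 3 KO libraries, and aortic ECs gave 3 WT and 3 KO libraries. EC RNA was collected by flushing the lumen of the aorta with a lysis reagent, so it was not taken from sorted cells. All mice were kept in room air, and the deletion of *Hmox2*, which encodes the heme oxygenase that is a proposed oxygen sensor, was present in the whole animal. The study describes the sequenced mice as young, and their sex is not given in the sources used here. The labels do not tell which heart and EC libraries came from the same mouse.

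In the sarcomere, myosin heads carried by the thick filament pull on actin of the thin filament, and the pull is switched on when calcium binds troponin C and the troponin complex moves tropomyosin off the actin. Each myosin heavy chain carries an essential and a regulatory light chain. In the adult mouse heart, atrial myocytes use *Myl4* and *Myl7* for these chains and ventricular myocytes use *Myl3* and *Myl2*, so the light chains tell the chambers apart. *Myh6*, *Mybpc3*, *Actc1* and the 3 troponin genes are used in atria and ventricles alike.

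Total estimated counts were 7268626 in heart WT 1 and 29815090 to 31619776 in the other heart libraries, so values from heart WT 1 carry more counting error. EC libraries held 26067147 to 31138642 counts. *Hmox2* was 37.3 to 42.5 CPM in WT hearts and 7.53 to 8.90 in KO hearts, and 63.9 to 76.2 CPM in WT ECs and 12.6 to 14.8 in KO ECs, so every library matched its genotype label. CPM here are counts scaled to a library size that was TMM normalized within a tissue, so that libraries of different depth can be compared. TPM, the authors' length-corrected unit, was used to compare levels between genes and tissues. *Pecam1*, which encodes an endothelial adhesion molecule, was 364 to 1007 TPM in EC libraries and 24.2 to 48.0 in heart libraries. EC libraries also held RNA of other cell types. *Ucp1*, the uncoupling protein of brown fat, was 1022 to 1909 TPM in all 6, and *Myh11*, the smooth muscle myosin, was 103 to 180 TPM in WT and 18.8 to 71.1 in KO. The summed Y-linked genes *Ddx3y*, *Uty*, *Kdm5d* and *Eif2s3y* were 2.51 and 2.85 TPM in EC KO 2 and EC KO 3, and 42.2 to 78.4 TPM in the other 11 libraries. Both low libraries were KO, so the sex of the mice may be partly confounded with genotype in the ECs.

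Of the 10 genes, 5 had a RefSeq promoter whose start lies within 50 bases of the beginning of the transcript most abundant in heart tissue (GRCm38.p6, 250 bases before to 50 after the start). The promoters of *Myl7* (chr11:5898733-5899032, minus strand), *Myl3* (chr9:110763428-110763727, plus strand) and *Mybpc3* (chr2:91117894-91118193, plus strand) are shown because they set an atrial light chain beside a ventricular light chain and a gene of both chambers. Capitals mark 3 motifs searched on both strands. These are GATAA (the core bound by GATA factors), the CArG box (bound by serum response factor) and the MEF2 motif.
Myl7: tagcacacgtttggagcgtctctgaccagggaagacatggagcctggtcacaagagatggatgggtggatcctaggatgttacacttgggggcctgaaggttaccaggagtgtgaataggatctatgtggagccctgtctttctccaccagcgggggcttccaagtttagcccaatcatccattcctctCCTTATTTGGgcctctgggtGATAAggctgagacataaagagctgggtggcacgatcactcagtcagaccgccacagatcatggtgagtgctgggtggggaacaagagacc
Myl3: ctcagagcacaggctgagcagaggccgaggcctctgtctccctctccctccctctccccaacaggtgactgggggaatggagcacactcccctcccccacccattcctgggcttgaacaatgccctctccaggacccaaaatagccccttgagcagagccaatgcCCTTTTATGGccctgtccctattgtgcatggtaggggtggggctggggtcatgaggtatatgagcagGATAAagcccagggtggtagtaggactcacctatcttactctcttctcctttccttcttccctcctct
Mybpc3: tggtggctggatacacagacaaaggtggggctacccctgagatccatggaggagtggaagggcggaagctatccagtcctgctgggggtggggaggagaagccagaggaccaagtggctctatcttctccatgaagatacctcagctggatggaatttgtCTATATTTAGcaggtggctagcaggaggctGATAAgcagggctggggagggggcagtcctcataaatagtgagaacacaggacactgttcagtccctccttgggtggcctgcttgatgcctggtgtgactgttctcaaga
The CArG box stood in the *Myl7* and *Myl3* windows, and 1.63% of the 32851 RefSeq promoters of this length hold it. GATAA stood in 4 of the 5 windows (*Myl7*, *Myl3*, *Mybpc3* and *Tnni3*) against 25.4% of all promoters, and the MEF2 motif in *Mybpc3* alone against 3.19%. CANNTG (the E-box core) stood in all 5 against 72.3%, and TATAA in *Tnnc1* alone against 24.9%. The *Myl7* and *Myl3* windows thus held the same marked motifs, none of which overlap in the 3 sequences shown.

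In heart tissue the sarcomere genes were among the most abundant messages, while the atrial light chains were barely detected. In WT hearts the 10 genes together held 3.35% to 4.35% of all TPM. *Myl2* was the highest at 11093 ± 1199 TPM (SD, n = 4), and its lowest library was above every library of *Actc1* (6232 ± 1088 TPM). *Tnnt2* (5662 ± 437 TPM) overlapped *Actc1*. *Myl3* (4574 ± 425 TPM), *Tnni3* (3656 ± 419), *Myh6* (3257 ± 555) and *Tnnc1* (2577 ± 409) followed, each overlapping the next in that order. *Mybpc3* stood apart below them at 823 ± 146 TPM. The atrial light chains were at the other end of the scale, with *Myl7* at 2.11 ± 1.05 TPM and *Myl4* at 1.40 ± 0.67 TPM, also overlapping. *Myl7* was 0.00985% to 0.0282% of *Myl2* in WT hearts. *Sln*, which encodes the calcium pump inhibitor sarcolipin of atrial myocytes, was 0 to 0.241 TPM, and *Bmp10*, a growth factor of the atrial myocardium, was listed at 0 in all 4. These were the low members of a list of 6 further atrial genes. *Nppa*, which encodes the atrial natriuretic peptide, was 573 to 887 TPM in WT hearts, *Kcnj3* 16.3 to 19.3, *Stard10* 11.6 to 15.5 and *Mybphl* 0.347 to 0.5 TPM.

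In KO hearts, 5 of the 10 genes were higher than in WT hearts and 5 did not pass, at an adjusted p of at most 0.05 in edgeR's quasi-likelihood test with Benjamini-Hochberg adjustment over 13816 genes. In the same test 33.4% of all genes passed, made up of 17.2% higher and 16.2% lower. *Myl7* and *Myl4* also changed by 1 or more on the log2 scale, 2 of 10 against 6.71% of all genes. The 10 genes had a median log2 fold change of 0.37, and all genes tested had -0.01. In bulk tissue, fewer cells of a type and less RNA per cell cannot be told apart. Markers of other cell types also differed between the hearts. All 3 erythroid markers (*Hbb-bs*, *Hba-a1* and *Alas2*) were higher in KO hearts, with log2 fold changes of 2.31, 1.90 and 1.69 and a summed level of 210 to 470 TPM in WT and 1508 to 2232 TPM in KO. All 3 mesothelial markers were higher as well (0.88 to 1.30, sums of 7.11 to 10.5 and 17.0 to 27.3 TPM), as were 2 of 4 macrophage markers (*Cd68* and *C1qa*) and 2 of 5 smooth muscle markers (*Tagln* at 1.17 and *Acta2* at 0.66), while 1 smooth muscle and 2 of 6 fibroblast markers were lower. Of 9 further cardiomyocyte genes, 3 were higher (*Ckm*, *Mb* and *Csrp3*, 0.42 to 0.51), 2 were lower (*Ttn* at -1.53 and *Tcap* at -0.44) and 4 did not pass. The part of these cells in the heart values was not tested.

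The ventricular light chains were higher. *Myl2*, the regulatory light chain, was 6029, 5877, 5861 and 5472 CPM in WT hearts and 10814, 9208 and 7071 CPM in KO hearts. All KO libraries were above all WT libraries, and KO 3 was the nearest to them. The log2 fold change was 0.64 ± 0.13 (SE, adjusted p = 0.00468). *Myl3*, the essential light chain, was 3741, 3761, 3661 and 3892 CPM in WT hearts and 6466, 5100 and 4083 CPM in KO hearts. KO 3 was again the lowest KO library and lay just above WT (log2 fold change 0.47 ± 0.14, adjusted p = 0.0213). Both calls were lost when length and GC were offset per gene (0.07 and 0.02 on the log2 scale) and with the libraries of both tissues in 1 fit (*Myl2* adjusted p = 0.380, *Myl3* 0.436). *Myl3* also missed the threshold without heart WT 1 or WT 3 (adjusted p = 0.0574 each), without KO 2 (0.0586) and with the replicate block (0.0730).

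The atrial light chains rose by more from a level near the limit of detection. *Myl7*, the atrial regulatory light chain, had 6, 41, 13 and 25 counts in WT hearts and 140, 135 and 441 in KO hearts. In CPM it was 0.892, 1.42, 0.495 and 0.885 against 4.11, 4.08 and 13.2, so the groups did not overlap and KO 3 was the highest. The log2 fold change was 2.92 ± 0.47 (adjusted p = 0.00150). *Myl4*, the atrial essential light chain, was 0.744, 1.52, 0.876 and 1.17 CPM in WT hearts and 1.5, 1.78 and 13.2 CPM in KO hearts. Here KO 1 and KO 3 differed widely, KO 1 overlapped WT, and KO 3 decided the value. The log2 fold change was 2.27 ± 0.68 (adjusted p = 0.0255) with KO 3 and 0.54 (adjusted p = 0.212) without it, when *Myl7* was 2.13 (adjusted p = 0.000539). *Myl4* also missed the threshold when any 1 WT heart was left out (adjusted p = 0.0506 to 0.0707). *Sln* was also high in KO 3 alone, at 2.66 TPM against 0.0829 and 0.0297 in KO 1 and KO 2. The other further atrial genes went both ways. *Mybphl* (0.431, 0.278 and 1.13 TPM in KO 1, 2 and 3) and *Kcnj3* (17.8, 20.0 and 27.5) were highest in KO 3. *Nppa* (541.5, 412.2 and 319.1 TPM) and *Stard10* (26.6, 22.7 and 19.7) were lowest there, and *Bmp10* was 0 there. The part of atrial tissue in these values was not tested. In KO hearts *Myl7* was still 0.0444% to 0.218% of *Myl2* in TPM.

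**Figure D1:**
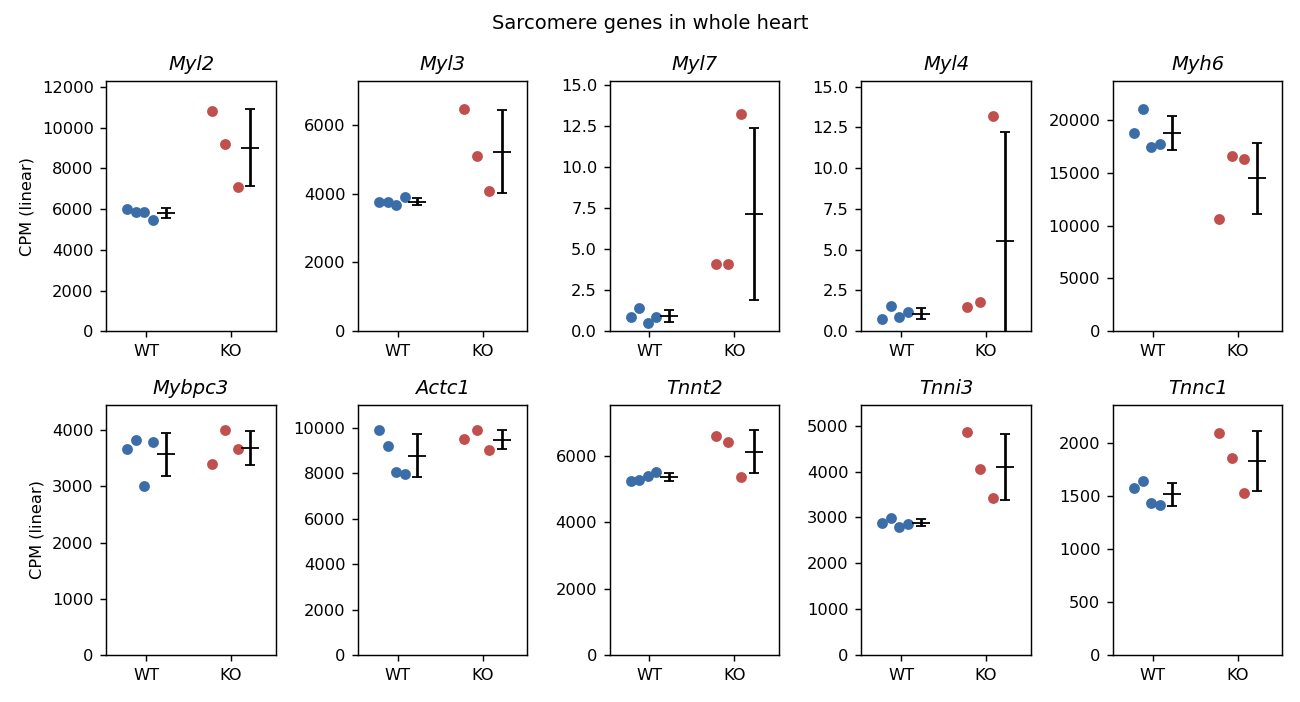
CPM (linear axes from 0) of the 10 sarcomere genes in whole heart, 4 WT (blue) and 3 KO (red) libraries as points, with the mean and SD at the right of each group (the *Myl4* KO bar runs below 0 and is clipped). The WT and KO points are apart for *Myl2*, *Myl3*, *Myl7*, *Tnni3* and, downward, *Myh6*, and KO 3 stands above the other KO points for *Myl7* and *Myl4* at 13.2 CPM.

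Among the other thick-filament genes, *Myh6* was 18775, 20998, 17426 and 17708 CPM in WT hearts and 10595, 16563 and 16256 CPM in KO hearts. All 3 KO libraries were below the WT libraries, with KO 1 far below, but the gene did not pass (log2 fold change -0.37 ± 0.15, adjusted p = 0.0755). DESeq2 gave an adjusted p of 0.0451. *Myh6* shares 28.5% of its 31-base words with *Myh7*, so reads of the pair can be exchanged. *Mybpc3*, which brakes cross-bridge cycling, was 3009 to 3827 CPM in WT and 3391 to 4001 CPM in KO hearts (0.05 ± 0.11, adjusted p = 0.778).

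Of the thin filament, the inhibitory subunit *Tnni3* was higher, at 2888, 2980, 2799 and 2865 CPM in WT hearts and 4861, 4048 and 3420 CPM in KO hearts. The groups did not overlap (log2 fold change 0.51 ± 0.12, adjusted p = 0.00801), but the call was lost with the libraries of both tissues in 1 fit (adjusted p = 0.350). The calcium-binding subunit *Tnnc1* was 1415 to 1641 CPM in WT and 1532 to 2097 CPM in KO hearts (0.27 ± 0.12, adjusted p = 0.101). The tropomyosin-binding subunit *Tnnt2* was 5249 to 5519 against 5384 to 6597 CPM (0.19 ± 0.10, adjusted p = 0.148). *Actc1* was 7950 to 9910 against 9028 to 9890 CPM (0.11 ± 0.10, adjusted p = 0.438). These 3 overlapped between the genotypes.

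The order of the fold changes in heart followed transcript length. Over all genes tested, the median log2 fold change was 0.55 for 1168 genes under 1000 bases, 0.24 for 3704 genes of 1000 to 2000 bases, -0.04 for 5839 genes of 2000 to 4000 bases and -0.33 for 3105 longer genes. The higher genes *Myl2* (659 bases), *Tnni3* (902) and *Myl3* (929) are short, and their fold changes of 0.47 to 0.64 lie near the 0.55 of all genes of that length. *Myh6*, at 5351 bases, had -0.37 against -0.33. Others lay further off. *Tnnc1*, at 719 bases, had 0.27 against 0.55, and *Mybpc3*, at 4163 bases, had 0.05 against -0.33. Across the 10 genes, which share their libraries, Pearson's r of fold change and log2 length was -0.58 and Spearman's rho -0.90. With an offset for the length and GC content of each gene, *Myl2* was 0.07 (adjusted p = 0.529), *Tnni3* 0.06 (adjusted p = 0.602) and *Myl3* 0.02 (adjusted p = 0.866), and none of the 3 passed. With this offset *Tnnc1* turned to -0.26 and passed (adjusted p = 0.0458), *Myl7* kept 2.48 (adjusted p = 0.00731) and *Myl4* was 2.01 (adjusted p = 0.0699). The share of mitochondrially encoded counts also differed between the groups, at 37.6% to 44.3% in WT and 22.5% to 27.2% in KO hearts. With mitochondrially encoded genes left out of the edgeR fit, the same 5 sarcomere genes passed, with *Myl2* at 0.64 and *Tnni3* at 0.51. Any other part of this share in the values was not tested.

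**Figure D2:**
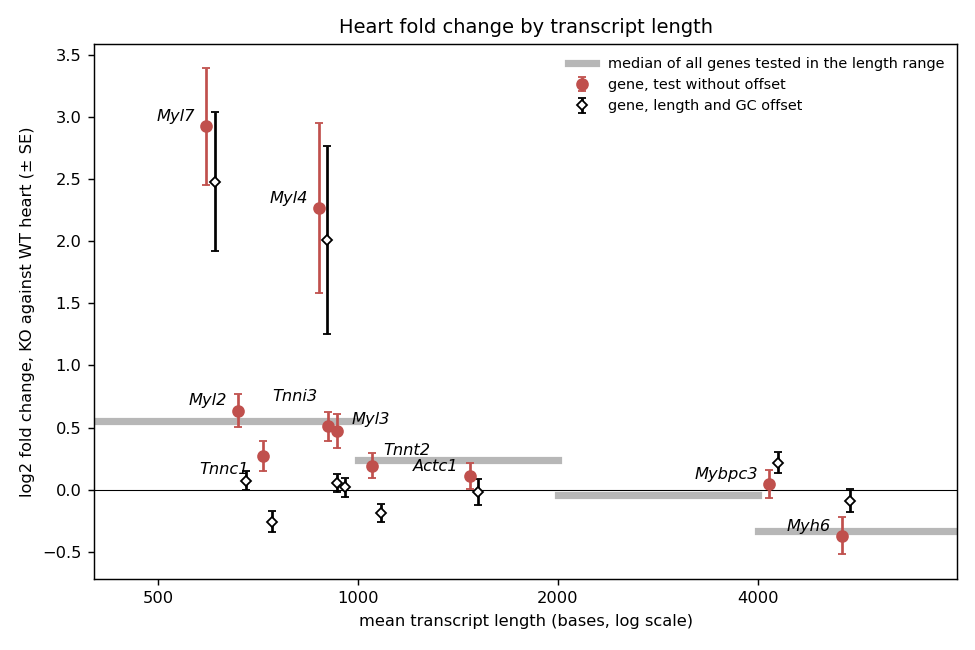
Log2 fold change of KO against WT heart (± SE) of each sarcomere gene against its mean transcript length in bases (log axis), without an offset (red circles) and with it (open diamonds), and grey bars for the median of all genes tested in 4 length ranges. *Myl2*, *Tnni3*, *Myl3* and *Myh6* lie near the grey bars at 0.55 and -0.33, while *Myl7* and *Myl4* lie above them at 2.92 and 2.27.

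Isoform partners were compared as the share of a pair's TPM, in exact two-sided permutation tests of 3 KO against 4 WT hearts, adjusted over 6 pairs. The smallest p that 35 splits allow is 0.0286, which became 0.0571 after adjustment, so a share could pass only where at least 4 of the 6 reached it. *Acta1*, the skeletal actin that is also made by the fetal heart, was 2.58%, 2.26%, 1.55% and 2.07% of both sarcomeric actins in WT hearts and 0.542%, 1.01% and 0.629% in KO hearts. *Tnnt1*, the slow skeletal troponin T, was 0.279% to 0.332% of *Tnnt1* and *Tnnt2* in WT and 0.178% to 0.205% in KO hearts. *Myl7* was 0.00985% to 0.0282% of *Myl2* and *Myl7* in WT and 0.0444% to 0.218% in KO hearts. Each of these 3 shares separated the groups (p = 0.0286, adjusted p = 0.0571, exact permutation test). The groups overlapped for *Myl4* (0.0301% ± 0.0127 in WT, 0.136% ± 0.182 in KO), for *Tnni1* (0.0142% ± 0.0056 and 0.00797% ± 0.00297) and for *Myh7* (17.0% ± 0.2 and 18.4% ± 2.7). *Myh7*, the beta myosin heavy chain of slow and fetal muscle, drew 88.4% to 96.1% of its heart TPM from a retained-intron transcript of 595 bases, so its share says little about full-length message. In estimated counts the *Myh7* share had the opposite sign, at -0.44 percentage points.

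Of 18 further cardiac and slow-muscle contractile genes, 4 were higher in KO hearts, 5 were lower and 9 did not pass (edgeR, median log2 fold change -0.11). The lower genes with the smallest adjusted p were *Myh7b*, a slow-type myosin heavy chain (69.9 ± 5.9 to 26.1 ± 6.9 CPM, log2 fold change -1.42, adjusted p = 0.000164), *Acta1* (186 ± 58 to 68.2 ± 26.0 CPM, -1.44, adjusted p = 0.00315) and *Myh7* (-0.62, adjusted p = 0.00400). The higher genes with the smallest were *Tpm3* and *Tpm2*, which encode tropomyosins (2.09, adjusted p = 2.77e-06, and 0.90, adjusted p = 0.00529), and *Csrp3*, a Z-disc protein (0.42, adjusted p = 0.0124). Without an offset, *Myh7b*, *Acta1* and *Myh7* thus moved against the ventricular light chains. With the length and GC offset *Acta1* was -1.72 and *Myh7* -1.04, while *Myl2* and *Myl3* were 0.07 and 0.02. The offset took *Myh7* as 963 bases long, a mean weighted by its retained-intron transcript of 595 bases. Its -1.04 rests on that length, so it does not show a change corrected for the full-length message. In TPM *Myh7* was 667 ± 117 in WT and 727 ± 112 in KO hearts, where the median gene was 0.218 higher on the log2 scale. Of 10 fast skeletal muscle genes 5 were tested and 0 passed in edgeR, and 0 had an unadjusted p under 0.05. Of 6 further atrial genes 4 were tested. *Nppa* was lower in KO hearts (577 ± 76 to 260 ± 84 CPM, log2 fold change -1.15, adjusted p = 0.00192) and *Stard10* was higher (0.49, adjusted p = 0.0217), so *Nppa* moved against *Myl7*.

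*Tnnt2* transcripts shifted their shares without a clear change of the gene. Tnnt2-208 was 37.1% to 41.9% of the gene's TPM in WT hearts and 26.2% to 35.6% in KO hearts, while Tnnt2-201 was 25.7% to 29.4% and 32.6% to 44.6%. Retained-intron transcripts of *Tnnt2* were 5.59% to 6.70% of its TPM in WT and 1.89% to 2.75% in KO hearts. Those of *Myh6* were 0.755% to 0.939% and 0.249% to 0.299%. These transcripts were looked at after their values were seen and were not tested.

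In ECs the sarcomere genes were present in WT libraries and nearly absent in KO libraries. All 10 were lower in KO ECs, where 18.1% of 15301 genes passed in either direction and 8.06% passed lower. All 10 also changed by 1 or more on the log2 scale, as did 9.28% of all genes. Their median log2 fold change was -5.27 against -0.02 over all genes.

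*Myl2* had 348, 3473 and 970 counts in WT ECs and 1, 7 and 1 in KO ECs. EC WT 2 was the highest of all, and no KO library exceeded 0.268 CPM. Over summed counts KO was 0.206% of WT (95% exact interval 0.0941% to 0.391%, counting error only), and the log2 fold change was -8.85 ± 1.19 (adjusted p = 0.00539). *Myl3* was 9.23, 50.5 and 16.2 CPM in WT ECs and 0.0708, 0.192 and 0 in KO ECs (-8.13 ± 0.98, adjusted p = 0.00384). The count of 0 in EC KO 3 allows up to 0.110 CPM.

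*Myl7* had 210, 378 and 143 counts in WT ECs and 0, 31 and 5 in KO ECs. EC KO 2 held most of the KO counts, and the 0 of EC KO 1 allows up to 0.106 CPM. The log2 fold change of -4.19 ± 0.98 passed (adjusted p = 0.0285), but not without EC KO 3 (0.110), EC WT 1 (0.0588) or EC WT 2 (0.0655). *Myl4* changed least of the 10, from 7.94, 11.8 and 5.75 CPM in WT ECs to 1.63, 2.49 and 2.17 CPM in KO ECs (-2.02 ± 0.32, adjusted p = 0.00892). The transcript that gave 47.5% to 56.9% of *Myl4* TPM in WT ECs gave 0% to 16.4% in KO ECs. *Myl4* shares 4.14% of its words with *Cdc27*, a gene that lies beside it.

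*Myh6* was 25.8, 78.1 and 28.0 CPM in WT ECs and 0.0354, 0.421 and 0.257 CPM in KO ECs (-7.53 ± 0.72, adjusted p = 0.00192). *Mybpc3* was 4.87, 11.3 and 5.19 against 0.142, 0.230 and 0.147 CPM (-5.34 ± 0.49, adjusted p = 0.00183). On the thin filament, *Tnnt2* was 18.8, 73.2 and 29.0 against 0.638, 0.498 and 0.294 CPM (-6.39 ± 0.64, adjusted p = 0.00240). EC WT 2 was the highest library for each of these genes.

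*Tnnc1* had 1115 counts over the WT ECs and 27 over the KO ECs (-5.20 ± 0.64, adjusted p = 0.00399). *Actc1* was 27.2, 82.1 and 36.5 against 1.28, 0.881 and 4.30 CPM (-4.49 ± 0.67, adjusted p = 0.00720). *Tnni3* kept the steadiest remainder in KO ECs, 43, 38 and 44 counts or 1.52, 1.46 and 1.62 CPM, against 10.4, 51.3 and 14.5 CPM in WT ECs (-4.05 ± 0.63, adjusted p = 0.00845). Without EC KO 3 it missed the threshold (adjusted p = 0.0506). The transcript that gave 95.9% to 97.6% of *Tnni3* TPM in hearts and 56.5% to 96.8% in WT ECs gave 49.3% to 63.1% in KO ECs. *Tnni3* shares 2.62% of its words with *Dnaaf3*. WT and KO libraries did not overlap for any of the 10 genes. How many of all genes separate in this way was not counted. All 4 macrophage and 6 of 9 endothelial markers also did so, and 0 of 3 erythroid markers.

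**Figure D3:**
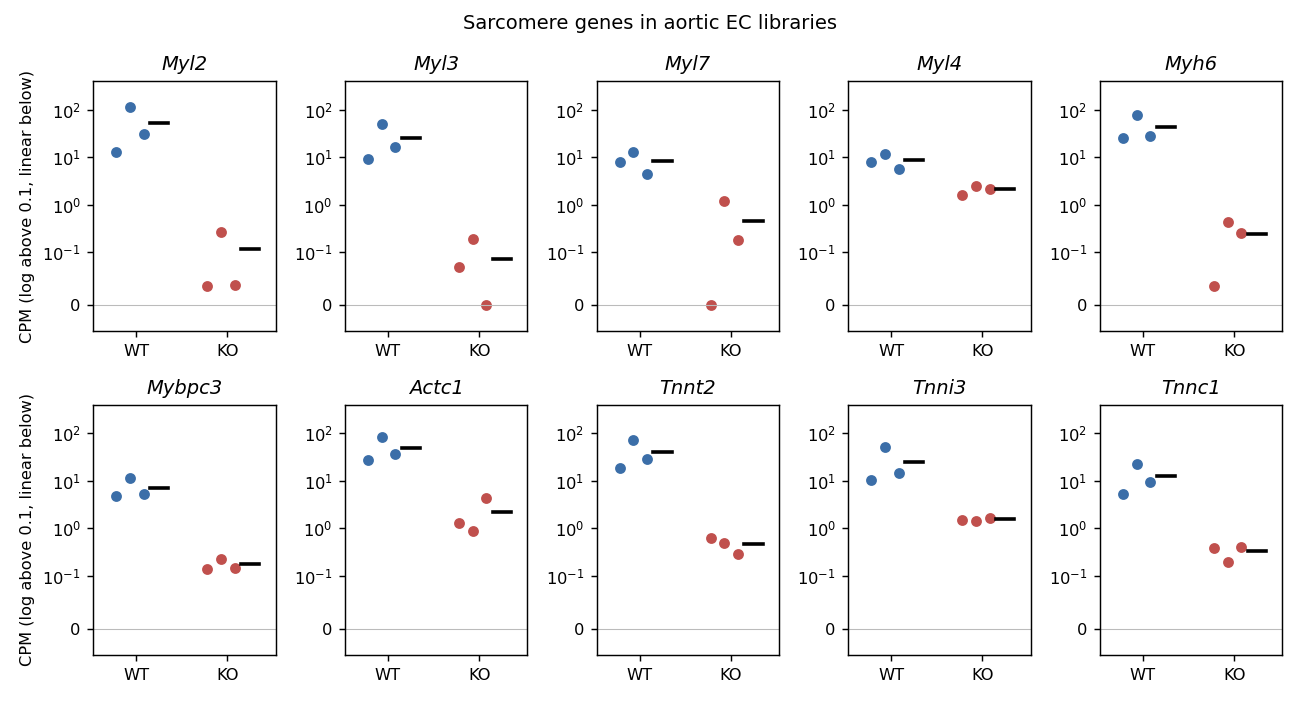
CPM of the 10 sarcomere genes in aortic EC libraries (log axis above 0.1, linear below it), 3 WT (blue) and 3 KO (red) libraries as points with the group mean as a bar. The WT points lie above the KO points in each panel, EC WT 2 is the highest WT library, and *Tnni3* and *Myl4* keep 1.46 to 2.49 CPM in KO ECs.

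Markers of other cell types also differed between the ECs, some lower and some higher in KO. Of 9 further cardiomyocyte genes, some of them also in the lists below, 8 were lower in KO ECs, with a summed level of 102 to 319 TPM in WT and 14.6 to 18.0 in KO. The one that did not pass was *Ryr2*, the calcium release channel, at 4.87 ± 3.05 CPM in WT and 1.85 ± 0.06 CPM in KO ECs (log2 fold change -1.39, adjusted p = 0.0630). Its groups did not overlap in CPM, while in TPM they did, at 0.284 to 0.739 in WT and 0.378 to 0.738 in KO ECs. All 3 mesothelial markers (*Msln*, *Upk3b* and *Krt19*) were lower, with sums of 8.71, 62.0 and 64.1 TPM in EC WT 1, 2 and 3 and 1.55 to 2.60 TPM in KO ECs. All 5 fast skeletal muscle markers were lower, at 19.1 to 75.9 against 1.95 to 6.0 TPM, and *Myh4*, a fast myosin, was at 0 in all 3 KO ECs. Of 5 smooth muscle markers 2 were lower, and of 9 endothelial markers 4 were higher and 1 lower. Of 6 fibroblast markers 3 were higher (*Lum* at 1.64, *Dcn* at 1.33 and *Pdgfra* at 0.92) and 0 lower. Of 4 macrophage markers 2 were higher (*Adgre1* and *Cd68*) and 0 lower. Of 5 brown adipocyte markers 1 was lower, and of 3 erythroid markers 0 passed. The part of these cells in the sarcomere values was not tested. EC WT 1 had the lowest mesothelial sum among WT ECs, though above that of every KO EC library. Set alone against the 3 KO ECs, it gave log2 fold changes of -1.92 to -6.80 for the 10 genes. With EC KO 1 alone against the 3 WT ECs, which leaves out both libraries low in Y-linked genes, the log2 fold changes were -2.37 to -10.9. All 10 had an unadjusted p under 0.05 and 0 passed adjustment (smallest adjusted p = 0.0907, edgeR). Both of these comparisons were added after the data were seen, and assume that the lone library varies like the others.

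As a percent of the heart level of the same genotype, the genes fell into 2 sets in WT ECs. *Myl2* was 0.212%, 2.48% and 0.712% of its heart TPM, *Myl3* 0.294%, 1.82% and 0.609%, and *Tnni3* 0.369%, 2.21% and 0.873%. The 8 genes other than the atrial light chains had medians of 0.294%, 1.74% and 0.693% in EC WT 1, 2 and 3, so EC WT 2 was the highest for the set. *Mybpc3* was the lowest of the 8 in all 3, at 0.130%, 0.392% and 0.186%.

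The atrial light chains were higher in WT ECs than in WT hearts. *Myl7* was 16.5, 34.97 and 12.7 TPM in WT ECs against 1.00 to 3.53 TPM in WT hearts, or 783%, 1660% and 601% of the heart mean. *Myl4* was 10.96, 20.1 and 9.54 TPM against 0.626 to 2.11 TPM, or 786%, 1438% and 684%. In both genes the lowest EC library was above the highest WT heart library. The size depended on the unit. In CPM over all libraries the mean WT EC level was 532% of heart for *Myl7* and 468% for *Myl4*, against 1015% and 969% in TPM, and 0.119% to 0.544% for the other 8 genes, against 0.236% to 1.15%.

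Within a library, *Myl7* was 70.2%, 12.7% and 16.0% of *Myl2* in EC WT 1, 2 and 3, and 0.00985% to 0.0282% in WT hearts. *Myl4* was 81.6%, 24.0% and 34.3% of *Myl3*, and 0.0136% to 0.0414% in WT hearts. The log2 ratio was 10.45 higher in ECs for *Myl7* over *Myl2* and 10.52 higher for *Myl4* over *Myl3*, and 10.43 higher for the sums of both pairs. Each of the 3 had p = 0.0286 in an exact two-sided permutation test, the smallest that 3 against 4 libraries allow, and 0.0286 after adjustment over them. EC WT 1, with the least *Myl2*, had the highest ratio. KO ECs were not tested, since *Myl2*, *Myl3* or *Myl7* had 3 counts or fewer in some libraries. *Sln* followed the atrial light chains, at 1.53, 3.47 and 1.12 TPM in WT ECs against at most 0.241 TPM in WT hearts. *Nppa* did not, at 1.32, 17.5 and 6.52 TPM against 573 to 887 TPM. *Kcnj3* was also far lower in WT ECs, at 0.0166, 0.156 and 0.00941 TPM against 16.3 to 19.3 TPM. *Mybphl* overlapped the WT hearts, at 0.294, 0.97 and 0.199 TPM against 0.347 to 0.5 TPM. *Stard10* was within the heart range of 11.6 to 15.5 TPM in EC WT 1. It was above that range in EC WT 2 and EC WT 3, at 24.2 and 24.1 TPM. *Bmp10* was 0 in all WT libraries of both tissues.

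**Figure D4:**
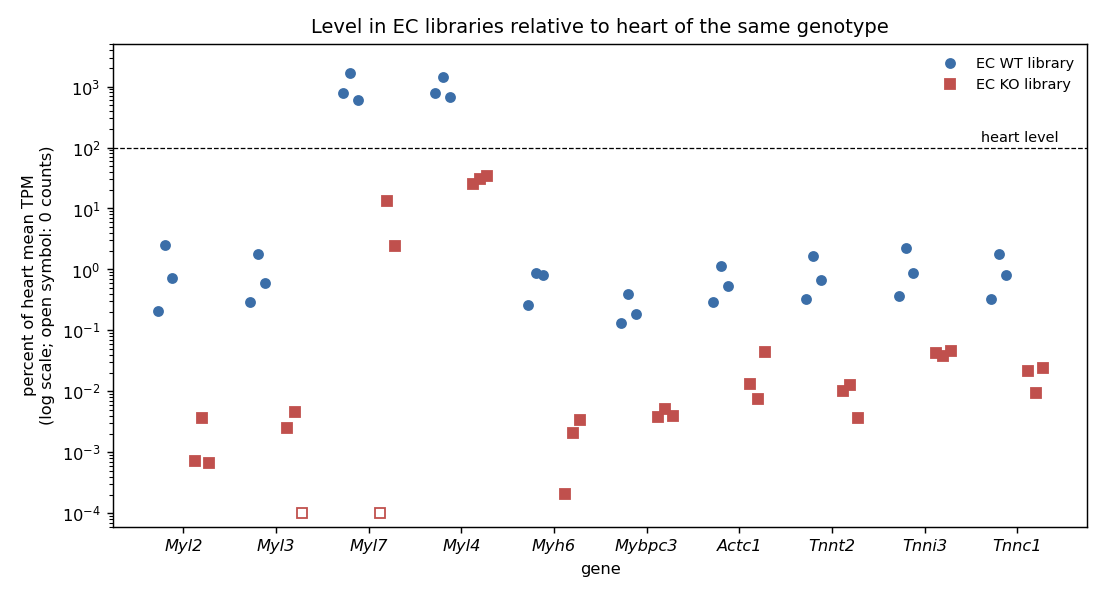
Level of each sarcomere gene in each EC library as a percent of the mean TPM of the hearts of the same genotype (log axis, dashed line at 100%), WT as blue circles and KO as red squares, with open squares at the foot of the axis for 0 counts. In WT ECs *Myl7* and *Myl4* lie above the line at 601% to 1660%, and the other 8 genes lie between 0.130% and 2.48%.

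In KO ECs the percentages were far smaller. The 8 genes other than the atrial light chains were at most 0.0459% of their KO heart level, with medians of 0.00689%, 0.00635% and 0.00377% in EC KO 1, 2 and 3. *Tnni3* was the highest of the 8 in each, at 0.0380% to 0.0459%. *Myl7* was 0%, 13.2% and 2.42% of its KO heart level and *Myl4* was 25.0%, 30.1% and 34.5%. KO hearts held 20.3 ± 16.3 TPM of *Myl7* and 9.35 ± 11.8 TPM of *Myl4*, most of it in KO 3, which set these percentages. Without heart KO 3 the mean for *Myl4* went from 29.9% to 109%, above the heart level, and that for *Myl7* from 5.20% to 9.68%. Without EC KO 2 the mean for *Myl7* was 1.21%.

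**Figure D5:**
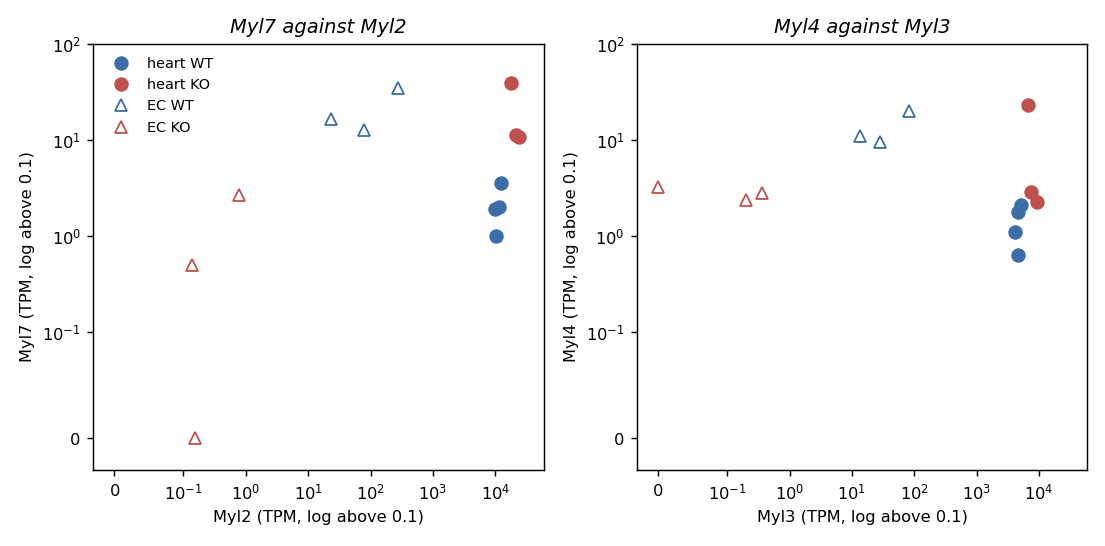
TPM of the atrial against the ventricular light chain of each pair in every library (*Myl7* against *Myl2* and *Myl4* against *Myl3*, log axes above 0.1 and linear below), hearts as filled circles and ECs as open triangles, WT blue and KO red. WT ECs, at 12.7 to 34.97 TPM of *Myl7*, overlap the KO hearts, with 23.5 to 275 TPM of *Myl2* where hearts have 10032 TPM or more.

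The difference between the tissues was tested as an interaction of tissue and genotype over all 13 libraries. All 10 genes passed, with the genotype effect lower in ECs than in hearts, where 28.8% of 15938 genes passed in either direction and 16.2% passed lower. The difference in log2 fold change ran from -9.51 ± 1.04 for *Myl2* (adjusted p = 7.24e-05) to -4.35 ± 0.91 for *Myl4* (adjusted p = 0.00375). For *Myl4* it was -2.60 without heart KO 3.

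Of 16 further cardiac and slow-muscle contractile genes tested, 7 were lower in KO ECs and 1 was higher. *Myh7* (-4.69, adjusted p = 0.00269), *Acta1* (-6.20, adjusted p = 0.00316) and *Tmod4*, a cap of the thin filament's pointed end (-3.55, adjusted p = 0.00399), had the smallest adjusted p among the lower, and *Tpm3* was the higher gene (40.5 ± 5.8 to 184 ± 5 CPM, log2 fold change 2.19, adjusted p = 0.000279). Of 9 fast skeletal genes tested 8 were lower, led by the troponins *Tnnc2* (-6.18, adjusted p = 0.00406), *Tnnt3* (-5.87, adjusted p = 0.00409) and *Tnni2* (-5.51, adjusted p = 0.00495). *Acta1* was 19.3, 7.82 and 33.1 CPM in EC WT 1, 2 and 3. EC WT 2, the highest for the 10 sarcomere genes though not for every further cardiomyocyte gene, was thus the lowest for this skeletal actin. *Tnnt3* had the same order, at 21.3, 5.66 and 32.4 TPM.

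The genes whose log2 CPM over the 6 EC libraries was most like the mean of the 10 were *Wwox*, *Ckmt2*, *Csrp3*, *Cntd1* and *Kpna2rt* (Pearson's r 0.992 to 0.996), and 5.26% of 14702 genes had an r over 0.9. Over the 7 hearts they were *Gas2l1*, *Zc3h14*, *E2f6*, *Pam* and *Pxk* (0.971 to 0.978), with 1.49% of 13392 genes over 0.9. With so few libraries, which these genes share, the values are a description.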

How the data were processed

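RNA of whole heart (4 WT, 3 KO) and aortic ECs (3 WT, 3 KO) was sequenced as oligo-dT, directional libraries. The deposited estimated counts were made by the authors with kallisto 0.44.0 in default mode, which does not use the strand, so overlapping genes can share reads. The deposited TPM values come from the same authors' runs. The study's methods name a GENCODE GRCm39 index, while the submitters' processing notes name mm10 and GRCh38.p13. Of 118489 transcripts, 115140 (97.2%) matched GENCODE M39 without the version, and the rest (0.755% to 1.01% of counts) were left out.

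Values were summed per gene. Counts were rounded, filtered (filterByExpr, minimum count 10), TMM normalized and tested with edgeR 4.0.16 (R 4.3.3) for each tissue and as an interaction. The threshold was an adjusted p of at most 0.05, and changes of 1 or more on the log2 scale were counted beside it. Replicates are separate libraries, and p-values measure the spread between them. When simulated counts held 200 changed genes (4-fold), tests at both thresholds found 191 in heart, 161 in ECs and 139 in the interaction, with 5, 8 and 6 unchanged genes. A count of 0 was read as up to 3 counts. Intervals cover counting error only. Shares and ratios were compared with exact permutation tests (Python 3.11.15, numpy 2.4.6).

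The members, the gene lists and the alternatives were chosen with earlier results of these data known. Named were all members, *Myh7*, *Acta1*, *Tnni1* and *Tnnt1*, the 3 passing genes with the lowest adjusted p per direction and tissue of the further contractile list, the 5 most similar genes per tissue, and list genes a result turned on. Alternatives were DESeq2 1.42.0, upper-quartile normalization, no filter, no mitochondrially encoded genes, length-scaled TPM, a length and GC offset, a replicate block, all libraries in 1 fit, and leaving out each library. Gene coordinates and lengths are from GENCODE M39, promoters from RefSeq. Figures used matplotlib 3.10.9.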

Additional observations from a re-analysis of the deposited data

Results flagged for a closer look

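The genotype effect differed between the tissues for all 10 sarcomere genes in the tissue by genotype interaction (edgeR). The log2 effect in ECs minus that in hearts was -9.51 for *Myl2*, -8.62 for *Myl3*, -7.19 for *Myh6*, -7.16 for *Myl7*, -6.62 for *Tnnt2*, -5.51 for *Tnnc1*, -5.41 for *Mybpc3*, -4.65 for *Actc1*, -4.60 for *Tnni3* and -4.35 for *Myl4*, against -0.03 at the median of all genes. The effect was negative in each gene in ECs, and in hearts it was positive for all but *Myh6*.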

How the results depend on the processing

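The numbers that follow count genes that passed in edgeR unless another tool is named, and the cause of each change was not tested. In hearts, 5 sarcomere genes were higher and 0 lower, and 2 changed by 1 or more on the log2 scale. With a length and GC offset these counts were 1, 1 and 1. *Actc1* then was -0.017, *Tnnt2* -0.19 and *Tnnc1* -0.26. With all libraries in 1 fit 2 were higher, *Myl7* and *Myl4*. DESeq2 gave 4 higher, 1 lower (*Myh6*) and 1 past the log2 threshold, since *Myl4* had no adjusted p there. Leaving out each library gave 3 to 6 higher, 0 to 1 lower and 1 to 2 past the log2 threshold. The fewest higher genes came without heart WT 1 or WT 3, and the most higher genes and the 1 lower gene without heart KO 3. Past the log2 threshold, 1 remained without heart KO 3 or without any 1 WT heart. *Mybpc3* ranged from -0.030 to 0.105. In ECs the count of 10 lower genes fell to 0 with EC KO 2 and EC KO 3 both left out (10 with an unadjusted p under 0.05), and was 8 to 10 when single libraries were left out. The interaction kept 10 in all alternatives tried.

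WT and KO libraries of the same replicate number had correlations of deviations of -0.00437 to 0.0249 in hearts and 0.0292 to 0.158 in ECs. Of 6 KO libraries, 3 correlated best with their own number. So few libraries cannot show whether replicate numbers pair the samples. With the replicate block, 3 sarcomere genes were higher in hearts (*Myl3* and *Myl4* no longer passed) and 1 changed by 1 or more on the log2 scale. Of the further cardiac list 2 were then higher and 3 lower. The block left the 10 EC calls and the 10 interaction calls in place.

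Of the further cardiac and slow-muscle genes in hearts, 4 were higher and 5 lower. Those lower were 3 with length-scaled TPM and with all libraries in 1 fit, which gave 1 higher. Leaving out each library gave 2 to 5 higher and 3 to 4 lower. In ECs 7 were lower, 13 with all libraries in 1 fit, 0 without EC KO 2 and EC KO 3, and 4 to 7 without single libraries. The 8 lower fast skeletal genes in ECs were 1 without EC KO 2 and EC KO 3 and 4 to 8 without single libraries, and in hearts 0 to 1 were higher. In CPM the median EC level of KO mice was 0.00564% of heart, and *Myl4* in WT ECs was 468% of heart. Without heart KO 3 *Myl4* in KO ECs was 109% of heart. The share of *Myh7* was -0.44 percentage points in estimated counts, and that of *Tnni1* 0.000118 in its most abundant transcript. In log2 TPM, 1 of the 5 most similar genes in ECs and 0 of the 5 in hearts were shared. A light chain ratio from the most abundant *Myl4* transcript could not be computed, since it had 0 TPM in a heart library.

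Heart WT 1 was the shallowest library, and *Myl4* and *Myl7* had 5 and 6 counts there. EC KO values rest on few counts, so their fold changes are imprecise. All EC libraries held RNA of other cell types, and no measurement separates the cells in which a sarcomere message was made.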
